A study of Bos taurus with 8 samples.

Results

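Granulocyte-like cells were selected on measured UMIs in single-cell RNA-seq of cattle blood, chosen by the receptors that neutrophils carry for their growth factor and for the chemokines that attract them. A cell barcode was a member when it held at least 200 genes and at least 2 UMIs summed over CSF3R, CXCR1 and CXCR2, with 0 UMIs of CSF1R and VCAN (monocyte genes), CD3E (T cells) and MS4A1 (B cells). A UMI is a unique molecular identifier and counts 1 captured mRNA molecule. Of 30732 barcodes with at least 200 genes, 409 met this rule. The cells came from Chinese Holstein cows, lactating and 2 years old, whose blood was pooled over 4 animals and then divided. One portion received no LPS (lipopolysaccharide, the cell wall component of Gram-negative bacteria), and the other portions, still whole blood, were kept in 2 µg/ml of it over a period of 2 h, of 4 h and of 8 h before peripheral blood mononuclear cells (PBMCs) were isolated. Each treatment is therefore 1 library of pooled animals, so no p-value was computed, and animals cannot be told apart. The methods name no incubation time for the portion without LPS, and in every ratio to it LPS and the hours spent in incubation cannot be told apart. Where 4 values stand in a row below, they are those of the portions with no LPS and with the short, middle and long exposure, called the order of the times.

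Neutrophils are the most mobile white cells of blood and are kept alive by granulocyte colony-stimulating factor through its receptor CSF3R. CXCR1 and CXCR2 are receptors for CXCL8 and related CXC chemokines, which draw neutrophils into infected tissue, the udder included. LPS is sensed through TLR4 with LY96 and CD14, and the signal runs through NF-kB to cytokine genes and to genes that end the response. Isolation of mononuclear cells is meant to leave granulocytes behind, so those described here are the ones that stayed in the preparation.

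The members numbered 78, 163, 124 and 44 in the order of the times. Their share of the barcodes was 0.919% without LPS (exact 95% binomial interval 0.727 to 1.15) and 1.56% at 2 h (1.34 to 1.82). It was 1.56% at 4 h (1.30 to 1.85), and the 8 h library had 1.14% (0.830 to 1.53). The shares at 2 h and 4 h lay above the interval without LPS, while the interval at 8 h overlapped it. All intervals here cover counting error only and none covers the spread between animals or preparations. These shares moved with the rule, and with a receptor sum of at least 3 they were 0.577%, 0.893%, 1.18% and 0.830% in the order of the times. Exactly 2 receptor UMIs were found in 141 members, and 196 further cells met every other part of the rule with a receptor sum of 1.

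The members were shallow and carried few kinds of mRNA. Their median depth was 1046, 1482, 1551 and 1760.5 UMIs, between 0.250 and 0.355 of the median of their own library. The rule's 2 receptor UMIs favour deep barcodes, while its bar on any UMI of CSF1R, VCAN, CD3E and MS4A1 favours shallow ones. The part of the rule in this depth was not tested. All members together held 110481, 325363, 294710 and 149890 UMIs. At an equal depth of 500 UMIs drawn from each cell, a median member showed 241, 167, 199.5 and 197 genes, against 284, 258, 290.5 and 295 in cells with at least 2 UMIs of CD14 and 1 of CSF1R. These CD14 CSF1R cells, 1514 in all, are the monocyte-like cells used for comparison throughout. Requiring these UMIs favours deep barcodes, and the median depth of the CD14 CSF1R cells was 16829 to 33013 UMIs. The CD14 CSF1R cells numbered 864, 305, 156 and 189 in the order of the times, which is 10.2%, 2.93%, 1.96% and 4.90% of the barcodes. Their share was thus lower at each LPS time than without LPS. Whether they are alike at each time, and the part of this fall in the comparisons, was not tested. Mitochondrial transcripts took a median of 0.321% to 0.727% of a member's UMIs, below the library medians of 2.09% to 2.26%. Members above 5000 UMIs numbered 2, 8, 11 and 6 in the order of the times and held 18.1%, 19.0%, 35.3% and 50.2% of the members' UMIs. Values without them are given for some results only, such as S100A8, S100A9 and S100A12 at 8 h. Of the 93 barcodes that occur in more than 1 library, 0 were members.

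The label was checked against marker lists, in CPM, the count of a gene per 1000000 of the UMIs summed over the members of a library. The genes that the selection of any of these cells uses (CSF3R, CXCR1, CXCR2, CSF1R, VCAN, CD3E, MS4A1 and CD14) were left out of the sums. T cell markers summed to between 0 and 73.4 CPM, against 1719 to 1886 in cells with CD3E. B cell markers summed to between 83.0 and 208 CPM, against 1446 to 2114 in cells with MS4A1. The CD14 CSF1R cells held T cell markers too, at 542, 689, 822 and 812 CPM, against 58.5 to 76.0 in cells with MS4A1. Doublets were not called, and the part of these transcripts in the comparisons was not tested. Eosinophil, basophil and mast cell markers summed to between 9.05 and 20.4 CPM over 11 genes, against 10.6 to 29.2 in the CD14 CSF1R cells. Cells with CD3E had 5.13 to 9.21 CPM and cells with MS4A1 3.54 to 6.68 CPM, below the members in each library. In the members IL5RA, GATA2, MS4A2, CPA3, HDC, TPSB2 and ALOX15 were at 0, and HDC and TPSB2 were also at 0 in the CD14 CSF1R cells. Monocyte markers summed to 1059, 384, 760 and 767 CPM, against 1557 to 2459 in the CD14 CSF1R cells. The scavenger receptor CD163, the high-affinity Fc receptor FCGR1A, CX3CR1, CCR2 and CLEC10A were at 0. MHC class II genes, by which monocytes and B cells present antigen, summed to between 274 and 492 CPM, against 2648 to 3422.

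Some lists of other cell types were not low. NK cell markers summed to 3277, 802, 1157 and 1168 CPM, against 957 to 1668 in the CD14 CSF1R cells and 317 to 470 in cells with CD3E. Without the adaptor TYROBP, which myeloid cells share, they summed to between 15.4 and 170 CPM, with NCR1, KLRD1, GZMA and KLRK1 at 0. Dendritic cell markers summed to between 2262 and 3933 CPM, against 609 to 1000, and without the transcription factor BATF3 to between 18.1 and 60.0 CPM, against 45 to 60.9. Plasma cell markers summed to 3159, 980, 2694 and 4637 CPM, against 1211 to 1717. Without JCHAIN they were at 299, 925, 1330 and 460 CPM, against 409 to 683, and so above the CD14 CSF1R cells at 2 h and 4 h. At 2 h nearly all of this sum was PRDM1, a transcription factor whose values are given below. Platelet and red cell markers summed to between 74.6 and 190 CPM, against 41.1 to 58.9. The part of these genes in the results below was not tested.

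Markers of neutrophils that the rule did not use were present in part. The 16 genes of the neutrophil list without the selecting genes summed to 51430, 13966, 4201 and 45327 CPM. The CD14 CSF1R cells had 12637, 8778, 10664 and 16199 CPM, so at 4 h the members lay below them. This list holds S100A8, S100A9 and S100A12, whose sums came from few cells, as given below. VNN2, a surface protein of neutrophils, was at 462, 148, 61.1 and 46.7 CPM in the order of the times, against 1.39 to 3.07 CPM in the CD14 CSF1R cells. MXD1, a transcription factor of maturing neutrophils, was at 715, 440, 343 and 274 CPM, against 22.3 to 45.5 CPM. Both had their highest value without LPS, and MXD1 at 2 h changed direction with TMM factors (a log2 ratio to no LPS of 0.30). Other defining genes were scarce, since the Fc receptor FCGR3A had 21, 12, 14 and 1 UMIs over all members, the membrane protease MMP25 4, 8, 4 and 2, and CMTM2 and LRG1 0 in every library.

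Granule genes were also partial. Azurophil granule genes, which are transcribed in the bone marrow before neutrophils leave it, summed to between 13.6 and 27.2 CPM, with MPO, AZU1, BPI and RNASE2 at 0. Specific granule genes were represented by TCN1, a vitamin B12 binder, at 1032, 682, 685 and 1261 CPM and by OLFM4, which marks a subset of neutrophils, at 498, 301, 438 and 547 CPM. The CD14 CSF1R cells had them at 42.7 to 91.9 CPM and 1.18 to 6.44 CPM. OLFM4 and TCN1 kept within 2-fold of the level without LPS at every time, while lactoferrin (LTF) had 11, 15, 2 and 3 UMIs. With several defining neutrophil transcripts near 0, the cells are called granulocyte-like. Whether these genes are captured by the bovine annotation was not tested.

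**Figure D1:**
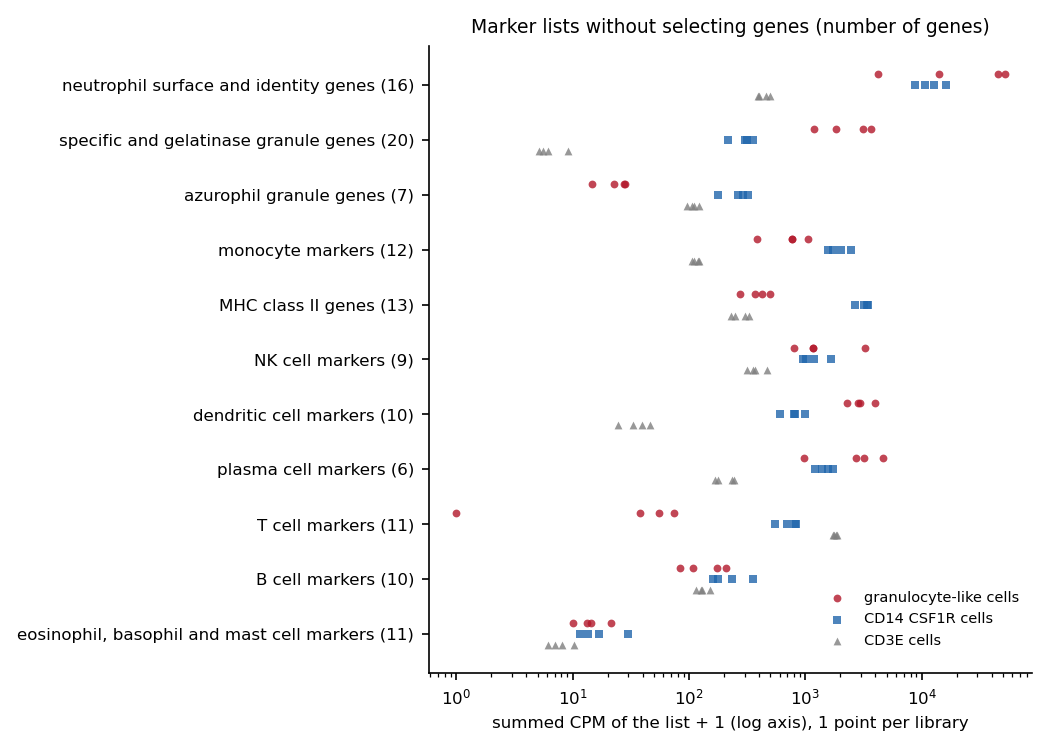
Summed CPM of marker lists plus 1 on a log axis, 1 point per library, without the genes used to select cells, for the granulocyte-like cells (red circles), the CD14 CSF1R cells (blue squares) and cells with CD3E (grey triangles). The granulocyte-like cells lie lowest for azurophil granule genes and T cell markers and highest for specific granule genes and for the dendritic cell list, which holds BATF3. Only 1 of the 7 azurophil granule genes reached 50 UMIs in the CD14 CSF1R cells, and likewise 1 in cells with CD3E. Their neutrophil list, which holds S100A8, S100A9 and S100A12, is spread widely, and at 4 h it lies below the CD14 CSF1R cells.

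The receptors that defined the cells were at levels the rule itself requires. CSF3R was at 1267, 879, 1106 and 600 CPM and CXCR1 at 1113, 655, 825 and 520 CPM. CXCR2 was at 145, 234, 166 and 160 CPM. At least 1 UMI of CSF3R was seen in 314 members, of CXCR1 in 306 and of CXCR2 in 120. CXCR1 and CXCR2 are closely related and lie near each other in the genome, with 1 gene between them in the RefSeq annotation, so the split of reads between them is uncertain. Among cells with CD3E, which should lack these receptors, 0.0993%, 0.346%, 0.357% and 0.140% reached a receptor sum of 2, and among cells with MS4A1 0.539%, 1.41%, 1.84% and 1.45%. These shares were higher at 2 h and 4 h than without LPS, as the share of members was, and their part in that share was not tested. The CD14 CSF1R cells reached it in 2.20%, 7.87%, 18.6% and 13.8% in the order of the times, at a median depth of 16829 to 33013 UMIs, and the part of free RNA and of depth in this share was not tested.

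Other chemoattractant receptors were present at moderate levels. CCR1, a receptor of CCL3 and CCL5, was at 1403, 830, 1004 and 874 CPM, and PTAFR, the receptor of platelet-activating factor, at 525, 326, 604 and 307 CPM. Both stayed within 2-fold of the level without LPS. C5AR1, the receptor by which neutrophils follow complement C5a, was at 661, 154, 95 and 167 CPM, and the decoy receptor C5AR2 at 326, 49.2, 23.8 and 60.0 CPM. C5AR1 was thus 4.30-fold lower at 2 h (log2 ratio -2.10, interval -2.65 to -1.57) and 6.95-fold lower at 4 h (-2.79, -3.48 to -2.15), and more than 2-fold lower at both times in each of 12 alternative settings. The LPS receptor TLR4 was at 453, 357, 421 and 207 CPM and its partner LY96 at 99.6, 79.9, 74.6 and 80.1 CPM, with CD14, for which the CD14 CSF1R cells were selected, at 181, 390, 366 and 200 CPM.

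Against the portion without LPS, genes with at least 100 UMIs over both sums were compared as log2((CPM + 1)/(CPM + 1)), and a 2-fold difference either way was counted. Of 471 genes at 2 h, 78 (16.6%) were at least 2-fold higher and 123 (26.1%) at least 2-fold lower. At 4 h, 79 (15.5%) of 509 were higher and 90 (17.7%) lower, and at 8 h 42 (12.2%) of 345 were higher and 70 (20.3%) lower. The median log2 ratio over all genes compared was -0.54, -0.12 and -0.16 for the 3 times, and each ratio below has to be read against it. This split depends on the scaling, because a few chemokines took a large share of the UMIs. With edgeR's TMM factors the higher and lower counts at 2 h, 4 h and 8 h were 142 and 15, 134 and 37, and 61 and 49, and with DESeq2's size factors 132 and 19, 109 and 41, and 61 and 49. A gene reaches 100 UMIs more easily when it is high in 1 of the libraries, so the counts within gene lists below are descriptions.

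CXC chemokines dominated the mRNA of these cells before and after LPS. Together CXCL8, CXCL2, GRO1, CXCL5 and CXCL3, which attract neutrophils through CXCR1 and CXCR2, took a median of 13.8%, 33.9%, 25.1% and 30.5% of a member's UMIs. Among the CD14 CSF1R cells the medians were 10.5%, 15.5%, 11.3% and 10.1%, and in cells with CD3E 0.0712%, 0.0504%, 0.0243% and 0.0615%. The 5th percentile of the members at 2 h was 13.7%, close to the median without LPS.

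**Figure D2:**
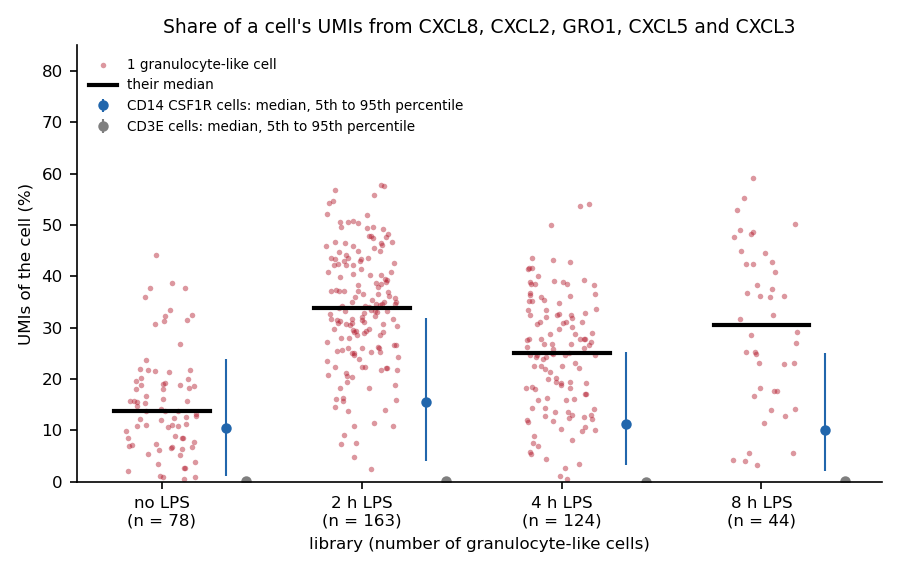
Share of each granulocyte-like cell's UMIs (percent) that came from 5 CXC chemokines, by library, with the median as a bar and the medians with 5th to 95th percentiles of the CD14 CSF1R cells and of cells with CD3E beside them. The median is 13.8% without LPS and between 25.1% and 33.9% after it, and cells with CD3E lie near 0.

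The members of this family had unlike ratios to no LPS. GRO1, CXCL2 and CXCL3 are closely related genes, and how 3′ reads were split between them is uncertain, which touches their separate values. CXCL8 (interleukin 8) was already at 48904 CPM without LPS and at 90096, 71945 and 71773 CPM after it, a log2 ratio of 0.88 at 2 h (0.84 to 0.92) that stayed under 2-fold at each time. CXCL2 was at 40758, 88987, 58922 and 65735 CPM, a ratio of 1.13 at 2 h (1.08 to 1.17). CXCL5 was at 25072, 37961, 43908 and 40430 CPM. With TMM factors the ratios at 2 h were 1.89 for CXCL8 and 2.13 for CXCL2, so CXCL8 passed 2-fold at 2 h with that scaling and CXCL2 with both. CXCL2 at 2 h was at least 2-fold higher in 9 of 12 alternative settings, with a lowest ratio of 0.95. GRO1 was at 13396 CPM without LPS and at 81927, 39999 and 49149 CPM after it, which is 6.12-fold higher at 2 h (log2 ratio 2.61, 2.54 to 2.69). CXCL3 went from 1032 CPM to 11178, 4540 and 6318 CPM, 10.8-fold higher at 2 h (3.44, 3.17 to 3.72). GRO1 and CXCL3 were more than 2-fold higher at every time and in each of 12 alternative settings.

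Compared with the CD14 CSF1R cells of the same library, CXCL8 had the largest ratio of the family in each library. CXCL8 was at 5848, 14247, 9365 and 7559 CPM in the CD14 CSF1R cells, so that the log2 ratio of granulocyte-like over CD14 CSF1R cells was 3.06, 2.66, 2.94 and 3.25. In cells with CD3E it was at 77.6 to 326 CPM. CXCL5 was higher in the CD14 CSF1R cells without LPS (54200 CPM) and near-equal after it (44863 to 48267 CPM). CXCL3 was 4899 CPM in the CD14 CSF1R cells without LPS and 4623 to 11722 CPM after it, a level the granulocyte-like cells came within 2-fold of after LPS.

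CC chemokines attract mainly monocytes and lymphocytes. CCL3 was at 235 CPM without LPS and at 7859, 11350 and 8406 CPM after it, 33.4-fold, 48.2-fold and 35.7-fold higher. At 500 UMIs per cell it was seen in 7.69% of the members without LPS and in 41.7%, 50.8% and 50% after it. CCL4 was at 543, 4592, 4557 and 1808 CPM, 44.3% of its UMIs at 4 h came from 1 cell, and without members with CD14 its log2 ratio at 4 h was 0.77 in place of 3.07. CCL5 was at 54.3, 498, 1252 and 447 CPM. CCL20 was at 18.1, 818, 550 and 794 CPM, with 2 UMIs without LPS (log2 ratio at 2 h 5.42, 3.63 to 8.55), and 97.5% of its UMIs at 4 h were from 1 cell. CCL20 at 4 h had a ratio of -1.70 once members with CD14 were left out. The monocyte attractant CCL2 was the exception in the list, at 543, 206, 631 and 287 CPM against 24652, 10257, 5603 and 10584 CPM in the CD14 CSF1R cells. Of 16 listed chemokines in the tables, 10 had enough UMIs at 2 h, and 7 of these were at least 2-fold higher and 1 lower, with a median log2 ratio of 2.84. At 4 h 6 of 10 were higher and at 8 h 5 of 9, and 0 were lower. Of all genes compared, 16.6%, 15.5% and 12.2% were higher and 26.1%, 17.7% and 20.3% lower at the 3 times.

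Interleukin 1 genes moved apart from each other. IL1RN, the antagonist that blocks the interleukin 1 receptor, was at 11287 CPM without LPS and at 28531, 30294 and 13316 CPM after it, with log2 ratios of 1.34 (1.25 to 1.42), 1.42 (1.34 to 1.51) and 0.24 (0.14 to 0.34). At 2 h and 4 h it was more than 2-fold higher in each of 12 alternative settings, and at 8 h in none. A median member gave 0.981%, 3.04%, 3.61% and 1.78% of its UMIs to IL1RN. In the CD14 CSF1R cells IL1RN was at 997, 3477, 3277 and 1696 CPM, and the log2 ratio of granulocyte-like over CD14 CSF1R cells was at least 2.97. IL1A, an interleukin 1 that is released mainly by damaged or activated cells, went from 217 CPM to 4272, 1988 and 1041 CPM, 19.7-fold, 9.15-fold and 4.79-fold higher. IL1B, the secreted interleukin 1 of the inflammasome, was at 7214, 10422, 7363 and 6064 CPM and stayed within 2-fold, while in the CD14 CSF1R cells it was at 6526, 16024, 9950 and 8739 CPM. With TMM factors the ratio of IL1B at 2 h was 1.53. IL1RN and CXCL8 are among the genes by which these cells were proposed as a type, though the rule counts neither of them.

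Of the other cytokines, CSF1 stood out. CSF1, the growth factor of monocytes and macrophages, was at 281 CPM without LPS and at 2225, 3980 and 1248 CPM after it, which is 7.93-fold higher at 2 h (log2 ratio 2.98, 2.47 to 3.56) and 14.2-fold at 4 h (3.82, 3.31 to 4.39). By 8 h CSF1 was 4.45-fold higher (2.15). CSF1 was at 29.7, 56.0, 156 and 126 CPM in the CD14 CSF1R cells, the cells that carry its receptor, so the granulocyte-like cells were 3.20 to 5.29 log2 units above them. OSM (oncostatin M) was at 72.4, 304, 227 and 187 CPM. VEGFA, an angiogenic factor, was at 1113, 2213, 960 and 994 CPM, with log2 ratios of 0.99, -0.21 and -0.16.

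Several cytokines that LPS is known for were scarce. IL6 had 5, 11, 1 and 2 UMIs over all members, while it was at 710, 2557, 519 and 430 CPM in the CD14 CSF1R cells. TNF was at 181, 123, 64.5 and 207 CPM, and 77.4% of its UMIs at 8 h were from 1 cell. CSF3, the ligand of CSF3R, had 0, 14, 29 and 98 UMIs, with 95.9% of those at 8 h in 1 cell, and was at 241, 3060, 1301 and 598 CPM in the CD14 CSF1R cells. Of 22 listed inflammatory cytokines, 6 had enough UMIs at 2 h and 4 of them were at least 2-fold higher, against 3 of 5 and 2 of 5 at the later times. Among all genes compared, 16.6%, 15.5% and 12.2% were higher.

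**Figure D3:**
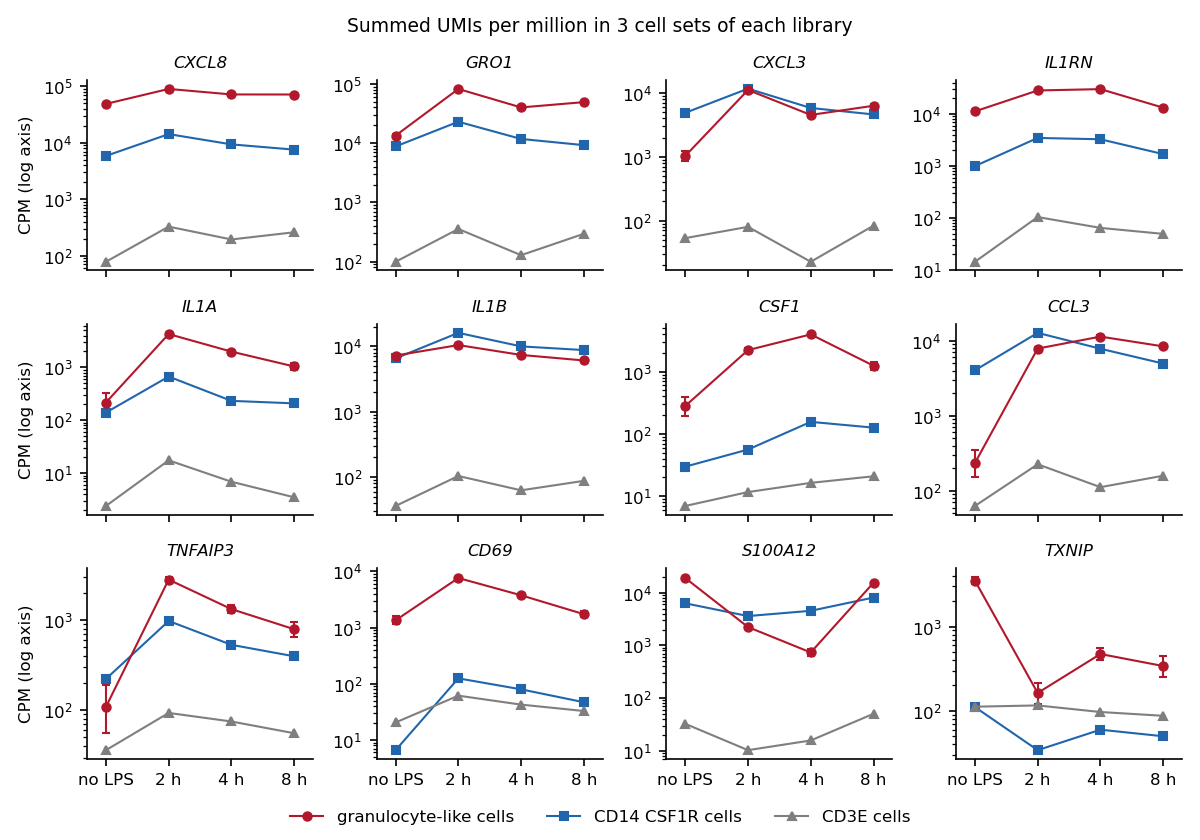
CPM on a log axis of 12 genes by library, in the granulocyte-like cells (red circles, with 95% Poisson intervals), the CD14 CSF1R cells (blue squares) and cells with CD3E (grey triangles). CXCL8, IL1RN, CSF1 and CD69 are above the CD14 CSF1R cells in each library, IL1B is near them, CCL3 and TNFAIP3 start below them and TXNIP is far lower after LPS.

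The list of NF-kB feedback and mRNA decay genes, which also holds NF-kB subunits such as NFKB2, was the next group. TNFAIP3 (A20), an enzyme that stops NF-kB signalling, was at 109 CPM without LPS and at 2785, 1313 and 787 CPM after it, 25.6-fold, 12.1-fold and 7.25-fold higher (log2 ratio at 2 h 4.67, 3.87 to 5.64). NFKBIZ, a nuclear NF-kB cofactor, was at 136, 845, 445 and 300 CPM, and NFKB2 at 525, 1761, 1435 and 861 CPM. All of these peaked at 2 h. NFKBIA, the inhibitor that holds NF-kB in the cytoplasm, was at 12337, 23752, 18961 and 9794 CPM, with a log2 ratio of 0.95 at 2 h (1.95 with TMM factors), against 1922 to 3950 CPM in the CD14 CSF1R cells. SOCS3, which ends cytokine signals through STAT3, had no UMI without LPS and 103, 44 and 7 UMIs after it, at least 11.7-fold higher at 2 h against a floor of 3 UMIs. ATF3, a repressor of cytokine genes, was at 643, 2108, 1086 and 474 CPM. Of 23 genes in this list, 16 had enough UMIs at 2 h, 9 of them at least 2-fold higher and 2 lower. At 4 h it was 5 higher and 2 lower of 15, and at 8 h 1 higher of 8. Of all genes compared, 16.6%, 15.5% and 12.2% were higher at the 3 times, and 26.1% and 17.7% were lower at 2 h and 4 h. At 8 h the list was thus near the share of all genes.

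Several inflammatory effectors were highest at 2 h as well. F3 (tissue factor), which starts blood clotting, had no UMI without LPS and was at 590, 193 and 234 CPM after it, at least 21.7-fold higher at 2 h. PTGS2, the enzyme of inflammatory prostaglandins, had 1 UMI without LPS and was at 581, 526 and 167 CPM after it (log2 ratio at 2 h 5.86, 3.51 to 11.32). TNFAIP6, which modifies hyaluronan in inflamed tissue, was at 63.4, 971, 445 and 247 CPM. Each of these was near its floor without LPS. NLRP3, the sensor of the inflammasome, was at 145, 1460, 706 and 447 CPM. PLAU (urokinase) was at 1512, 3086, 2331 and 1741 CPM, against 127 to 225 CPM in the CD14 CSF1R cells, and was within 2-fold of no LPS at 4 h and 8 h. SOD2, the mitochondrial superoxide dismutase, was at 12518, 13397, 15649 and 9414 CPM and TNFRSF1B, a receptor of TNF, at 1186, 2139, 2443 and 1561 CPM, both highest at 4 h.

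Surface and regulatory genes outside these lists followed similar courses. CD69, an early activation marker, was at 1349, 7641, 3763 and 1735 CPM, 5.67-fold higher at 2 h (log2 ratio 2.50, 2.26 to 2.75) and back within 2-fold at 8 h. GPR84, a receptor of medium-chain fatty acids, was at 2480, 9211, 3712 and 1348 CPM, 3.71-fold higher at 2 h. The adhesion molecule ICAM1 was at 190, 747, 502 and 294 CPM. All 3 were highest at 2 h and lower at 8 h than at 4 h. The transcription factor BATF peaked later, at 118, 320, 1330 and 827 CPM, 11.3-fold higher at 4 h (3.49, 2.71 to 4.42) and 7.03-fold at 8 h. PRDM1 (Blimp-1), a transcriptional repressor, was at 127, 919, 696 and 374 CPM.

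Survival genes came next. BCL2A1, an NF-kB target that blocks apoptosis, was at 2000, 6141, 4391 and 2742 CPM, 3.07-fold higher at 2 h (log2 ratio 1.62, 1.42 to 1.83). BIRC3, an inhibitor of apoptosis, was at 462, 1315, 1082 and 634 CPM. MCL1, on which neutrophil survival depends, was at 1394, 1122, 1408 and 660 CPM, and lay within 2-fold at 2 h and 4 h. BCL2A1 and BIRC3 were back within 2-fold of their starting level at 8 h. Of 21 listed survival and apoptosis genes, 3 of 7, 4 of 8 and 0 of 6 were at least 2-fold higher at the 3 times, and 1 was lower at 8 h. Of all genes compared, 16.6%, 15.5% and 12.2% were higher at these times, and 20.3% were lower at 8 h.

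The genes that were lower after LPS had other roles. TXNIP, which restrains glucose uptake and thioredoxin, was at 3494 CPM without LPS and at 163, 472 and 340 CPM after it, 21.4-fold, 7.41-fold and 10.3-fold lower (log2 ratio -4.41 at 2 h, -4.87 to -4.01). At 500 UMIs per cell it was seen in 73.1% of the members without LPS and in 5.52%, 20.2% and 18.2% after it. TYROBP, the adaptor of activating receptors such as TREM1, was at 3186, 787, 987 and 1014 CPM. TXNIP and TYROBP were more than 2-fold lower at each time in each of 12 alternative settings. NCF1, the p47 subunit that starts the neutrophil NADPH oxidase, was at 1548, 443, 224 and 307 CPM, 6.91-fold lower at 4 h (-2.78, -3.22 to -2.37) and 5.04-fold lower at 8 h. Its partner NCF4 went the other way, from 172 CPM to 393, 618 and 160 CPM, 3.59-fold higher at 4 h (1.84, 1.16 to 2.61). CYBB, the catalytic subunit of the oxidase, had 5, 12, 3 and 2 UMIs. Of 7 oxidase genes, 5 had enough UMIs at 2 h and 4 h, and at each of those times 3 were at least 2-fold lower and 1 higher. Of all genes compared, 26.1% and 17.7% were lower and 16.6% and 15.5% higher at 2 h and 4 h. With TMM factors only 15 of 471 and 37 of 509 genes were lower at these times. CEBPD, a transcription factor of myeloid cells, was at 3376, 980, 767 and 1174 CPM (log2 ratio at 2 h -1.78, and -0.78 with TMM factors).

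BASP1 and EGR1 were lowest at 8 h. BASP1, a membrane-bound signalling protein, was at 8201 CPM without LPS and at 5907, 4713 and 1708 CPM after it, 4.80-fold lower at 8 h (log2 ratio -2.26, -2.47 to -2.06). EGR1, an immediate-early transcription factor, was at 1041, 664, 502 and 360 CPM. At 2 h both were higher than without LPS once TMM factors were used (0.53 for BASP1 and 0.35 for EGR1), while at 8 h they were more than 2-fold lower in each of 12 alternative settings. RIDA, a deaminase of reactive intermediates, was at 1865, 544, 360 and 360 CPM.

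The calgranulins, abundant calcium-binding proteins of neutrophil cytoplasm, split the cells. S100A8 was at 9658 CPM without LPS and at 3716, 556 and 12456 CPM after it, S100A9 at 20058, 6365, 1747 and 16565 CPM, and S100A12 at 19044, 2228, 733 and 15471 CPM. These sums came from few cells. Together the 3 genes took at least 1% of the UMIs in 41.0%, 9.20%, 6.45% and 13.6% of the members, and the median CPM per member of each of S100A8, S100A9 and S100A12 was 0 at each time after LPS. At 8 h 1 cell gave 46.8% of the UMIs of S100A8, 48.9% of those of S100A9 and 68.2% of those of S100A12. Without members above 5000 UMIs, the log2 ratios at 8 h were -2.01 for S100A8, -3.61 for S100A9 and -2.86 for S100A12, in place of 0.37, -0.28 and -0.30. At 4 h all 3 were more than 2-fold lower in each of 12 alternative settings, with ratios of -4.11, -3.52 and -4.70. S100A8 at 2 h had a ratio of 0.81 with a receptor sum of at least 3, against -1.38. In the CD14 CSF1R cells S100A8, S100A9 and S100A12 lay between 2348 and 8103 CPM in every library, and 37.4% to 64.0% of those cells gave at least 1% of their UMIs to the 3 genes.

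Without LPS the 32 members with at least 1% calgranulins and the 46 under it could be compared within 1 library. The median share of the 5 CXC chemokines was 12.3% in the former and 15.8% in the latter, and that of IL1RN 0.455% and 1.23%. At 2 h the 15 members with calgranulins and the 148 without had CXC medians of 31.7% and 33.9% and IL1RN medians of 1.74% and 3.16%. At 4 h the 8 members with calgranulins and the 116 without had CXC medians of 22.2% and 25.5% and IL1RN medians of 3.0% and 3.69%. At 8 h the 6 and the 38 members had CXC medians of 17.7% and 34.2% and IL1RN medians of 0.534% and 1.91%, at median depths of 5922.5 and 1693 UMIs. Both medians were lower in the cells rich in calgranulins in each library, by unequal amounts and with few such cells after LPS. The 1% limit was set after the data were seen, and 6 members without LPS and 15 at 2 h lay between 0.5% and 1.5%.

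Interferon-stimulated genes, which block virus growth, were higher in these cells than in monocyte-like or T cells before any LPS. The 33 genes of the list took a median of 0.980%, 0.492%, 0.942% and 0.411% of a member's UMIs. In the CD14 CSF1R cells the medians were 0.0710%, 0.113%, 0.282% and 0.111%, and in cells with CD3E 0.101%, 0.121%, 0.230% and 0.138%. The granulocyte-like medians were above both in each library. They were near-equal without LPS and at 4 h, while the CD14 CSF1R cells and cells with CD3E had their highest median at 4 h and their lowest without LPS. The summed level of the members was 13568, 7675, 15493 and 4483 CPM. Cells with MS4A1 summed to 1831, 4695, 11398 and 2491 CPM, so at 4 h they came within 2-fold of the members. Some members lay far above their median, up to 10.9% without LPS and 18.8% at 4 h.

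ISG15, a ubiquitin-like modifier, was at 6019, 3565, 6430 and 1795 CPM in the granulocyte-like cells. In the CD14 CSF1R cells ISG15 was at 217, 887, 1752 and 298 CPM, and in cells with CD3E at 73.9, 482, 1574 and 186 CPM, so in both it was higher at each LPS time than without LPS. The difference between the courses was not tested. In the granulocyte-like cells the log2 ratio of ISG15 to no LPS was 0.10 at 4 h (-0.03 to 0.22) and -1.75 at 8 h (-1.96 to -1.54). The CD14 CSF1R cells had ratios of 3.01 and 0.46 at those times. ISG20, an RNA exonuclease, was at 1937, 1067, 1388 and 600 CPM and the transcription factor IRF9 at 697, 363, 563 and 234 CPM. At 8 h the 4 genes of the list with enough UMIs were at least 2-fold lower, where 20.3% of all genes compared were. ISG15, ISG20 and IRF9, which are among these 4, were so in each of 12 alternative settings. At 4 h 3 of 14, where 15.5% of all genes compared were, were at least 2-fold higher, IFIT2 (190 CPM without LPS and 994 at 4 h, 31.1% of it in 1 cell), USP18 (217 and 641 CPM) and the RNA sensor IFIH1 (181 and 546 CPM), and 1 was lower. In the CD14 CSF1R cells 26 of 31 genes of the list were at least 2-fold higher at 4 h, where 3.31% of all 7736 genes compared were.

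**Figure D4:**
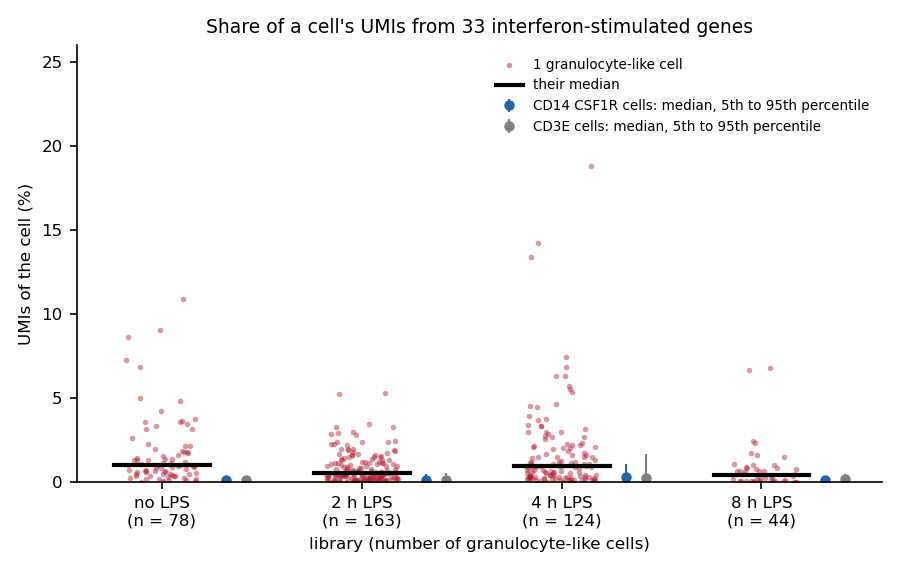
Share of each granulocyte-like cell's UMIs (percent) from 33 interferon-stimulated genes, by library, with the median as a bar and the medians with 5th to 95th percentiles of the CD14 CSF1R cells and of cells with CD3E beside them. The granulocyte-like median lies between 0.411% and 0.980%, above both other cell types in each library, and single cells reach 18.8%.

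Granulocyte-like cells were then set against the CD14 CSF1R cells of the same library, gene by gene. Part of this difference is fixed by the rule, which requires the receptors of the one and bars the monocyte genes of the other. Without LPS 7169 genes were compared, and 928 (12.9%) were at least 2-fold higher in the granulocyte-like cells and 3649 (50.9%) lower. At 2 h 8.71% were higher and 61.6% lower, at 4 h 9.83% and 53.1%, and at 8 h 6.71% and 51.3%. The median log2 ratio over all genes compared was between -1.40 and -1.04. Most of these genes would have few UMIs in so shallow a set of cells. With at least 20 UMIs expected in the granulocyte-like cells, 85, 177, 217 and 70 genes were higher and 280, 983, 919 and 359 lower in the order of the times.

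Within lists, interferon-stimulated genes were higher in 22 of 23, 16 of 21, 23 of 30 and 14 of 20 genes with enough UMIs, with median log2 ratios of 2.87, 2.01, 1.71 and 1.37. NF-kB feedback and mRNA decay genes were higher in 17 of 22, 13 of 22, 18 of 22 and 13 of 21, with medians between 1.44 and 1.75. Both shares were above the 6.71% to 12.9% of all genes. MHC class II genes were lower in 7 of 7, 5 of 6, 4 of 4 and 6 of 6 genes. Chemokines were lower in 11 of 14, 8 of 14, 4 of 13 and 6 of 14 genes and higher in 1, 2, 2 and 4, where 50.9%, 61.6%, 53.1% and 51.3% of all genes were lower.

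Among the genes farthest above the CD14 CSF1R cells in all 4 libraries were SERPINB4, CD69, TG, SESN2, VMP1, CD24 and DMXL2 and 2 genes without a symbol. VMP1, a protein of autophagy whose gene also holds a microRNA, was at 11233, 10892, 10234 and 7752 CPM against 152 to 323 CPM, and so one of the steadier transcripts over time. SERPINB4, a protease inhibitor, was at 5042, 2354, 1032 and 1308 CPM against 4.44 to 22.3 CPM. It was lower after LPS, 4.89-fold at 4 h (log2 ratio -2.29). CD24, a surface protein of granulocytes and B cells, was at 1874, 996, 607 and 887 CPM against 10.0 to 47.0 CPM. TG, annotated as thyroglobulin, was at 1150, 498, 475 and 707 CPM against 6.43 to 12.7 CPM. SESN2, a stress-induced regulator of metabolism, was at 235, 762, 492 and 407 CPM against 7.93 to 18 CPM.

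The genes farthest below included acute-phase proteins and matrix genes. SAA3 (serum amyloid A) had 1, 8, 24 and 7 UMIs in the granulocyte-like cells and was at 4291, 8403, 6881 and 8644 CPM in the CD14 CSF1R cells, and SAA2 and M-SAA3.2 lay with it. MMP1, a collagenase, and C1QC, a subunit of complement C1q, had no UMI in any of the 4 libraries. GPC1, NEDD4L, RGL1 and PDPN were also at or near 0. BATF3, which is listed for dendritic cells, was higher in the granulocyte-like cells at 2933, 2818, 3878 and 2202 CPM, against 548 to 952 CPM. Of the 10 dendritic markers 4 had any UMI in the members, BATF3 among them, while CLEC9A, XCR1 and FCER1A were at 0. CLEC9A and XCR1 were also at 0 in the CD14 CSF1R cells, so their absence does not set the members apart from those cells.

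**Figure D5:**
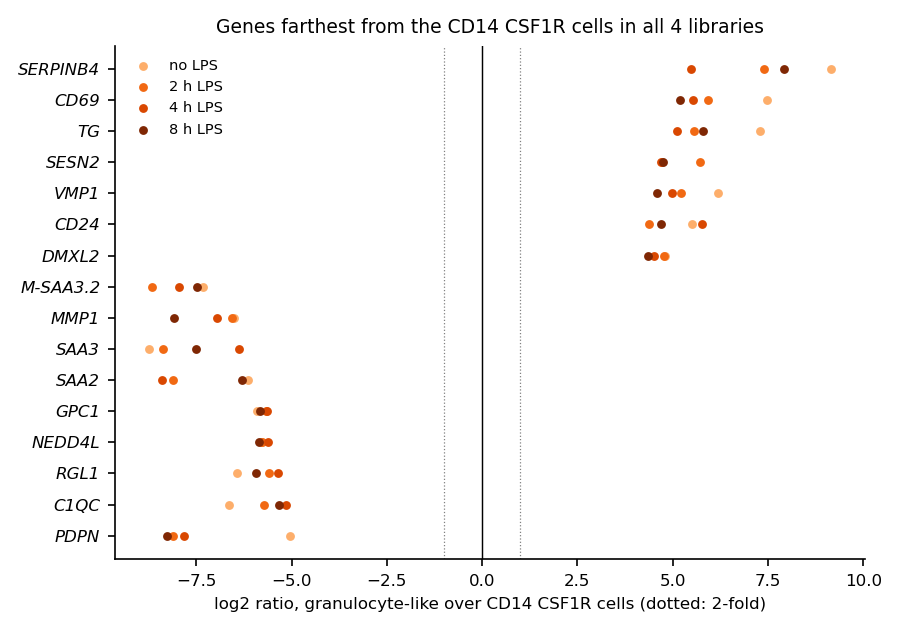
Log2 ratio of granulocyte-like over CD14 CSF1R cells for named genes among those farthest from 0 in all 4 libraries, 1 point per library (dotted lines mark 2-fold). SERPINB4 spreads from 5.47 to 9.15, whereas DMXL2 stays between 4.35 and 4.80.

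A few sums rest on single cells. A total of 1 member without LPS, 1 at 4 h and 1 at 8 h held over 100 UMIs of JCHAIN, the joining chain of plasma cell antibodies, and 97.8% to 98.6% of the members' JCHAIN. The 2 largest log2 ratios at 8 h belong to genes without a symbol, with 99.9% and 99.5% of their UMIs in 1 cell. DEFB10, DEFB13 and LCN2, antimicrobial genes, came at 8 h from 1 cell to 86.6%, 100% and 100%. Lymphocyte genes CD3D, CD3G, CD79A or CD79B were seen in 15 members, and CD14 in 105. By library, CD14 was seen in 16.7%, 27.6%, 29.8% and 22.7% of the members in the order of the times.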

How the data were processed

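For each barcode the authors deposited UMI counts (raw) of 21861 genes, made from 3′ single-cell libraries with Cell Ranger on ARS-UCD1.2 (lowest barcode total 500 UMIs). Library totals were 58038800 UMIs (no LPS), 63770426 (2 h), 56453080 (4 h) and 30902952 (8 h). The members and gene lists were chosen with earlier results of these data known. UMIs of a library's members were added up, and doublets were not called. Genes sharing 1 of 83 duplicated names were left out of the lists. With 1 library per treatment there was no test. Differences were log2 ratios of CPM with a pseudocount of 1, for genes with at least 100 UMIs over both sums. Intervals were exact at 95% (Poisson, conditional binomial for ratios). A gene at 0 was bounded by 3 UMIs per library. Cells with CD3E (at least 2 UMIs, without MS4A1, CSF1R and VCAN) served as background for free RNA, as did cells with MS4A1 likewise. Named were list members with at least 100 UMIs over all members or defining a class, the 10 largest differences each way at each time, and the 10 genes each way farthest from the CD14 CSF1R cells in every library. A few genes under that limit (such as IL6, LTF and CYBB) were named after their values were seen, and genes without a symbol were counted only. Scaling factors came from edgeR 4.0.16 and DESeq2 1.42.0 in R 4.3.3, and no test of either tool was used. The ratio step, in Python 3.11.15, was tested on simulated data. Alternatives changed the scaling, the limits of the rule, the pseudocount, the minimum of UMIs and the thinning. Those without members above 5000 UMIs, without the CXC chemokines in the totals and with 20 expected UMIs, as well as the marker sums without selecting genes and the 1% calgranulin limit, were chosen after seeing the data. The scATAC-seq libraries were not analysed here. A few items withheld from this text are not reported here.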

Additional observations from a re-analysis of the deposited data

Results flagged for a closer look

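Differences between cell types in the direction of the LPS contrast were looked for between the granulocyte-like and the CD14 CSF1R cells, and neither of the 2 found was tested. CSF3R at 8 h over no LPS had a log2 ratio of -1.08 in the granulocyte-like cells and 1.25 in the CD14 CSF1R cells. CSF3R is part of the rule that picks the granulocyte-like cells. DEFB13 at 8 h had a log2 ratio of 3.33 in the granulocyte-like cells and -3.92 in the CD14 CSF1R cells, and all of its UMIs in the granulocyte-like cells at 8 h came from 1 cell.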

How the results depend on the processing

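No paired analysis was possible because each treatment is 1 library, and for the same reason no replicate could be left out. Depth limits genes under 100 UMIs, for which few ratios are given. Over the alternatives, 155 main values stayed within their limit and 61 did not, and the cause was not tested.

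The median number of genes per cell (no LPS, 2 h, 4 h, 8 h) was 396, 266, 311.5 and 309 at 1000 UMIs and 395.5, 335, 401.5 and 485.5 without thinning. The share of members was 0.577%, 0.893%, 1.18% and 0.830% with a receptor sum of at least 3, and with CSF3R itself required 0.695%, 1.14% and 1.28% up to 4 h. Without members with CD14 it was 1.13% at 2 h and 1.09% at 4 h.

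For the time comparisons, TMM factors gave 142 higher and 15 lower genes at 2 h and 134 and 37 at 4 h. DESeq2 factors gave 132 and 19 at 2 h and 41 lower at 4 h. The study's limits on cells gave 137 lower at 4 h. At 8 h there were 25 higher and 46 lower with CSF3R required, 98 higher without CD14, 67 higher without CD3D, CD3G, CD79A and CD79B, and 26 higher without members above 5000 UMIs. Leaving the CXC chemokines out of the totals gave 67 lower at 2 h. With no minimum there were 2381, 3213 and 2390 higher and 3143, 2238 and 2228 lower.

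Against the CD14 CSF1R cells, DESeq2 factors gave 860, 760 and 765 higher and 1767, 1230 and 1879 lower at 2 h, 4 h and 8 h, and TMM factors 635 higher at 2 h. With no minimum there were 1575, 1198, 1342 and 999 higher and 5840, 5894, 5399 and 6036 lower from no LPS to 8 h. A pseudocount of 10 gave 2352 lower without LPS. With 20 expected UMIs, chosen after seeing the data, there were 85, 177, 217 and 70 higher and 280, 983, 919 and 359 lower.

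A total of 19 log2 ratios of single genes were counted as reversed. The changes of direction of MXD1, BASP1 and EGR1 at 2 h with TMM factors, given above, are not among them. All 3 were within 2-fold of no LPS at 2 h in the main setting. With TMM factors the median log2 ratio at 2 h was 0.46 in place of -0.54, so this count does not cover every change of direction with scaling. Over time, with a receptor sum of at least 3, S100A8 at 2 h was 0.81 and DEFB10 at 4 h 5.97. Without CD14, CCL20 at 4 h was -1.70, and at 8 h LCN2 was -8.83 and DEFB13 -5.61. Without members above 5000 UMIs, LCN2 at 8 h was -8.75 and DEFB13 -6.29. Against the CD14 CSF1R cells without LPS, a receptor sum of at least 3 gave -0.31 for TNF, -0.51 for NLRP3 and -6.49 for DEFB10, and CSF3R required gave -1.27 for NLRP3. At 8 h TNF was -0.65 without CD14 and -0.12 without members above 5000 UMIs, LCN2 was -2.51 and DEFB13 -3.23 under both, and S100A8 was -1.19 and S100A9 -1.37 without members above 5000 UMIs.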
